A study of Mus musculus with 24 samples.

Results

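The S100 calcium-binding genes are the 8 genes S100a1, S100a4, S100a6, S100a8, S100a9, S100a10, S100a11 and S100a13, taken by their symbols from a count table of 24421 genes. All 8 were among the 12742 genes with enough counts to be tested. RNA-seq was made from bone marrow mononuclear cells of mice labelled Shp2 E76K, in which an activating substitution in the Ptpn11 phosphatase is used to model juvenile myelomonocytic leukemia. All 4 groups carry this change, and no group without it is analysed here. Treatment lasted 3 weeks and was vehicle, ACP196, ACP319 or the combination of both compounds. ACP196 blocks Bruton's tyrosine kinase (BTK), and ACP319 blocks p110δ, a catalytic subunit of phosphoinositide 3-kinase (PI3K) found mainly in leukocytes. Each group has 3 specimens, and replicates are named by the specimen numbers of the labels: 1, 2 and 3 (vehicle), 4, 5 and 6 (BTK inhibitor), 7, 8 and 9 (PI3K inhibitor), 10, 11 and 12 (combination). Age, strain and the promoter behind the Shp2 change are not in the labels, nor is whether every replicate came from its own mouse, so the tests measure only the spread between these specimens.

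S100 proteins are small dimeric proteins with paired EF-hand calcium-binding loops, and most of them change shape on binding calcium and then grip a partner protein. S100A8 and S100A9 form the heterodimer calprotectin, which fills the cytosol of neutrophils and monocytes, binds zinc and manganese, and acts after release as an alarm signal on the receptors TLR4 and RAGE. S100A4 and S100A6 bind cytoskeletal and ubiquitin ligase partners, S100A10 and S100A11 bind annexins at membranes, and S100A13 takes part in the release of growth factors that have no signal peptide.

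All 8 genes lie on mouse chromosome 3 (mm10). S100a1 (90511034 to 90514330, minus strand) and S100a13 (90514435 to 90524581, plus strand) stand head to head with 104 bases between them. S100a4 (90603770 to 90606045) and S100a6 (90612894 to 90614414) follow on the plus strand. S100a8 (90669071 to 90670034, plus strand) and S100a9 (90692630 to 90695721, minus strand) are neighbours 22595 bases apart that run toward each other. S100a11 (93520496 to 93526288) and S100a10 (93555117 to 93564645) lie on the plus strand 2824774 bases beyond S100a9. No exon or gene body of another gene in the table overlapped them. Their transcripts are short, from 392 bases for S100a8 to 719 for S100a6, with a median of 569.5 against 2835 over all tested genes. Only 3.67% of tested genes are as short as S100a6 or shorter, and 392 other tested genes have a length between those of S100a8 and S100a6. These 392 genes of like length are set beside the S100 genes throughout.

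The upstream sequences of the calprotectin pair are shown because S100a8 and S100a9 carried nearly all of the family's counts. Per length the pair kept close in all specimens but BTK inhibitor replicate 5, where S100a8 was 0.490 times S100a9. Each run holds the 250 bases before the annotated start, from RefSeq on GRCm38.p6, read along the gene's own strand. Capitals in the S100a8 sequence (chr3:90668821-90669070, plus strand) mark CTTCCTC, the reverse complement of the myeloid ETS-type motif GAGGAAG, and the TATA box TATAAA.
S100a8: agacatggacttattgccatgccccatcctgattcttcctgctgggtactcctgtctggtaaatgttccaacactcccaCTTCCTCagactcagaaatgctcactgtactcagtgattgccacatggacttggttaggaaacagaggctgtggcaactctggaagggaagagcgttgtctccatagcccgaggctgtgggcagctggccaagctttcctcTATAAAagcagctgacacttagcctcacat
Capitals in the S100a9 sequence (chr3:90695722-90695971, minus strand) mark a match to TTGCNNAA, a simple form of the C/EBP motif.
S100a9: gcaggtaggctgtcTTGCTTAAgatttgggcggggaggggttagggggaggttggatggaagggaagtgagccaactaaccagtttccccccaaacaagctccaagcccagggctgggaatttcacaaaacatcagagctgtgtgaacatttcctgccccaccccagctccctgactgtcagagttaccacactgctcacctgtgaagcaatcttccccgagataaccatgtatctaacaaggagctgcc
TATAAA stood 30 to 25 bases before the start of S100a8 and 31 to 26 before that of S100a4, CTTCCTC 171 to 165 before S100a8, and the C/EBP match 236 to 229 before S100a9. Searched on both strands, with no overlap between these matches, TATAAA was found in 12.3% of 32536 promoters of the same length, TTGCNNAA in 9.57% and GAGGAAG in 10.7%. The other 4 S100 promoters in the table (S100a1, S100a6, S100a11 and S100a13) held none of these letters, and S100a10 was not matched. A match of letters is a description and not a site.

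Specimens held between 8993950 and 22154833 counts. BTK inhibitor replicate 5 stood apart, with the lowest total, a share of 15.4% for Rn45s, the precursor of ribosomal RNA (0.203% to 0.773% in the other 11), and 13560 genes with a count. Titles name day 24 of the month for 11 specimens and day 30 for BTK inhibitor replicate 6, without saying what was done on that day. Libraries also differed in how expression, relative to each gene's mean, varied with gene length. The slope was 0.15, 0.40 and 0.12 log2 units per doubling of length in vehicle replicates 1, 2 and 3 and -0.28, -0.35 and 0.18 in BTK inhibitor replicates 4, 5 and 6. It was -0.10, -0.37 and -0.38 in PI3K inhibitor replicates 7, 8 and 9 and 0.09, 0.25 and 0.29 in combination replicates 10, 11 and 12. A negative slope means that short transcripts were relatively high in that library. Whether the slopes come from library preparation or from the cells was not tested.

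S100a8 and S100a9 were among the 3 highest genes per length in every specimen. S100a8 was at 56156 ± 16766 CPM per kb (counts scaled to a common library total, per kilobase of transcript, mean ± SD, n = 3) in vehicle, and S100a9 at 58153 ± 18462. Together the pair took 5.79% ± 1.78 of all counts in vehicle, 7.31% ± 2.92 with the BTK inhibitor, 7.99% ± 1.94 under the PI3K inhibitor and 4.37% ± 0.50 under the combination (SD, n = 3 each). Next per length in vehicle came S100a11 (1494 ± 183) and S100a6 (1349 ± 423), followed by S100a4 (328 ± 140.4), S100a10 (225 ± 76.3), S100a13 (57.98 ± 12.6) and S100a1 (42.5 ± 15.9). Within vehicle the neighbours S100a8 and S100a9, S100a11 and S100a6, S100a4 and S100a10, and S100a13 and S100a1 differed by less than the larger of their SDs.

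**Figure D1:**
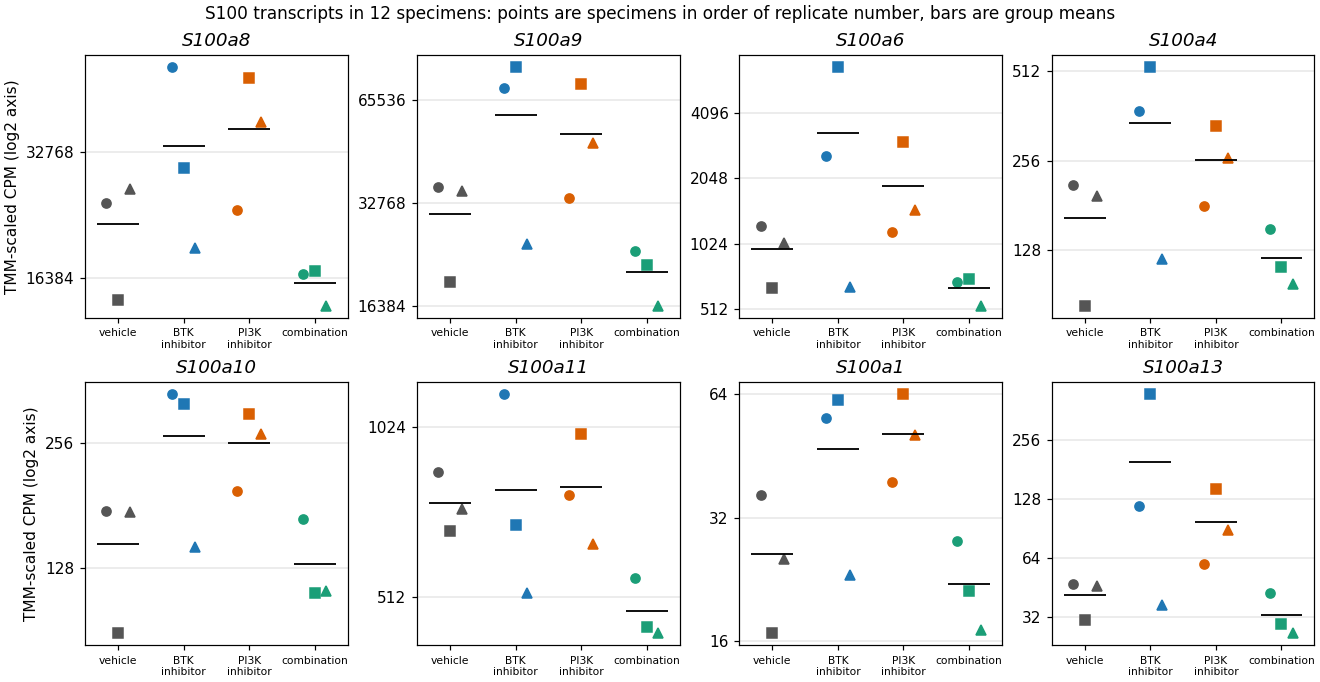
TMM-scaled CPM (log2 axis) of the 8 S100 genes in each of 12 specimens by treatment group; points are specimens in order of replicate number and bars are means of 3. In every panel the highest mean is that of a single inhibitor and the lowest that of the combination, and all 3 PI3K inhibitor points lie above all 3 combination points.

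S100a8, the zinc-binding alarm protein gene, was at 24746, 14515 and 26778 CPM in vehicle replicates 1, 2 and 3. It was at 52340.4, 29999.6 and 19281 CPM in BTK inhibitor replicates 4, 5 and 6, and at 23761, 49315 and 38549 CPM in PI3K inhibitor replicates 7, 8 and 9. Combination replicates 10, 11 and 12 had 16756, 17002 and 14058 CPM. The combination specimens lay below every specimen of either single inhibitor, while vehicle overlapped all 3 treated groups. Vehicle replicate 2 was as low as the combination, and BTK inhibitor replicate 6 lay within the vehicle range. As these are bulk samples, fewer cells of a type and less RNA per cell cannot be told apart.

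S100a9, the calprotectin partner of S100a8, was at 36605.5, 19320.1 and 35491 CPM in the vehicle specimens, in the same order. BTK inhibitor specimens had 70899.7, 81799 and 24982 CPM, PI3K inhibitor specimens 33888, 73116 and 49173, and combination specimens 23852, 21578 and 16462. The same specimens were low as for S100a8, and again the combination overlapped vehicle but neither single inhibitor. The pair separated in 1 library: per length, S100a8 was 0.902 to 1.14 times S100a9 in 11 specimens and 0.490 times in BTK inhibitor replicate 5.

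S100a4, whose protein binds the heavy chain of non-muscle myosin IIA, was at 212, 83.4 and 195 CPM in vehicle. Its levels were 376, 529 and 119 CPM under the BTK inhibitor, 180.1, 334 and 261 under the PI3K inhibitor and 151, 112 and 98.5 under the combination. BTK inhibitor replicates 4 and 5 lay above all vehicle specimens and replicate 6 among them, so the groups overlapped.

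S100a6 (calcyclin), a partner of the Siah1 adaptor encoded by Cacybp, was at 1235, 638 and 1037 CPM in vehicle. BTK inhibitor specimens had 2588, 6697 and 644 CPM, PI3K inhibitor specimens 1154, 3019 and 1467, and combination specimens 679, 706 and 529.7. BTK inhibitor replicate 5 was far above every other specimen and replicate 6 of the same group was as low as vehicle replicate 2, so the groups overlapped.

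S100a10 (p11), which lacks calcium binding and pairs with annexin A2 at membranes, was at 175, 89.2 and 175 CPM in vehicle and at 335, 318 and 144 under the BTK inhibitor. PI3K inhibitor specimens had 196, 301 and 269 CPM, above all vehicle specimens, and combination specimens 168, 112 and 113. Its annexin partner Anxa2 was at 717 ± 64.9 CPM in vehicle, 937 ± 357 with the BTK inhibitor, 769 ± 299 under the PI3K inhibitor and 457 ± 61.9 under the combination (SD, n = 3).

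S100a11, the partner of annexin A1, was at 853, 671 and 735 CPM in vehicle and 1170.0, 688 and 520.4 under the BTK inhibitor. PI3K inhibitor specimens had 778, 995 and 636 CPM and combination specimens 554, 454 and 443, below every vehicle specimen. Anxa1 itself was at 2619.7 ± 624 CPM in vehicle, 2217 ± 1368 and 2598 ± 199 with the BTK and the PI3K inhibitor, and 1740.04 ± 276 with the combination.

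S100a1, best known as a regulator of calcium release in muscle, was low here, at 36.3, 16.7 and 25.4 CPM in vehicle. BTK inhibitor specimens had 56.02, 62.0 and 23.2 CPM, PI3K inhibitor specimens 39.2, 64.1 and 50.9, and those of the combination 28.2, 21.2 and 17.0. All 3 PI3K inhibitor specimens exceeded all vehicle specimens.

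S100a13, which helps export FGF1 and interleukin-1 alpha, was at 47.3, 31.0 and 46.1 CPM in vehicle and 118, 441 and 36.8 with the BTK inhibitor. PI3K inhibitor specimens had 59.9, 145 and 89.1 CPM, again above vehicle, and combination specimens 42.5, 29.4 and 26.4. BTK inhibitor replicate 5 stood out here as it did for S100a6.

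The order of the group means was alike for all 8 genes. The single inhibitors were above vehicle, and the combination was lowest. The BTK inhibitor led for S100a4, S100a6, S100a9, S100a10 and S100a13, and the PI3K inhibitor for S100a1, S100a8 and S100a11. The specimens of the top 2 groups overlapped for every gene. Vehicle and the second group separated for S100a10 and S100a13, and the combination and vehicle for S100a11. Between the PI3K inhibitor and vehicle, 3 S100 genes (S100a1, S100a10 and S100a13) had specimens that did not overlap, all higher, beside 24.9% of all tested genes and 72.2% of genes of like length. Between the BTK inhibitor and vehicle no S100 gene separated, beside 8.92% of tested genes and 26.5% of those of like length that were higher without overlap. Between the combination and vehicle, 1 of 8 was lower without overlap (S100a11), beside 9.47% of all tested genes and 3.32% of those of like length. Between the combination and the BTK inhibitor 2 of 8 were lower (S100a8 and S100a9, beside 6.73% of all tested genes and 13% of those of like length). Against the PI3K inhibitor all 8 were lower, beside 24.6% of all tested genes and 71.9% of genes of like length.

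No S100 gene passed between any 2 groups in edgeR's quasi-likelihood test, with p-values adjusted by Benjamini-Hochberg over all 12742 genes. With the BTK inhibitor against vehicle, 0% of tested genes passed, and 5 of 8 S100 genes had an unadjusted p below 0.05. Beside them were 3153 of 12742 tested genes and 245 of 392 of like length. DESeq2 called 2 of the 8 (S100a6 and S100a13), beside 8.52% of all tested genes and 45.7% of those of like length. Limma voom called 3 (also S100a10), beside 23.2% and 51.8%. With the PI3K inhibitor against vehicle 10.7% of tested genes and 20.7% of those of like length passed. There, 2 S100 genes had an unadjusted p below 0.05, beside 4543 of 12742 tested genes and 262 of 392 of like length. DESeq2 called 0 S100 genes, beside 3221 of 12742 tested genes. Voom called 2 S100 genes (S100a1 and S100a13), beside 37.4% of all tested genes and 65.8% of those of like length. With the combination against vehicle 0% of tested genes passed and no S100 gene had an unadjusted p below 0.05. Beside them 626 of 12742 tested genes and 16 of 392 of like length had one. DESeq2 called 0 and voom 2 (S100a9 and S100a11), beside 9.66% of all tested genes and 5.1% of those of like length for voom. For the combination against the BTK inhibitor and against the PI3K inhibitor, 0% of genes passed in either. All 8 S100 genes had an unadjusted p below 0.05 in both. Beside them were 2569 of 12742 tested genes and 228 of 392 of like length against the BTK inhibitor. Against the PI3K inhibitor these numbers were 3660 and 262. DESeq2 called 4 against the BTK inhibitor, beside 4.53% of tested genes and 31.1% of those of like length, and 3 against the PI3K inhibitor, beside 9.62% and 25.5%. Voom called 8 in both, beside 39% and 65.1% in the former and 41.8% and 76% in the latter. In the test of any difference among the 4 groups 0% of genes passed, and 6 S100 genes had an unadjusted p below 0.05. There DESeq2 called 7, beside 24.6% of tested genes and 66.8% of those of like length, and voom 8, beside 52.5% and 76.5%. Between the 2 single inhibitors 0% of genes passed, no S100 gene had an unadjusted p below 0.05, and the other tools called 0.

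Leaving out BTK inhibitor replicate 6 changed these counts most. Without it 6 S100 genes passed against vehicle, S100a6 at log2 2.25 (edgeR quasi-likelihood adjusted p = 0.00631) and S100a13 at 2.75 (0.006) among them, beside 29.4% of all tested genes and 60.8% of those of like length. All 8 then passed between the combination and the BTK inhibitor, beside 26.8% of tested genes and 56.9% of those of like length, and 6 between the combination and the PI3K inhibitor, beside 13.9% and 45.3%. Between the PI3K inhibitor and vehicle 2 passed (S100a1 and S100a13), beside 26.2% and 58.6%, and in the test of any difference 7, beside 31.8% and 66.7%. Without BTK inhibitor replicate 5 the log2 difference from vehicle went from 1.77 to 0.74 for S100a6 and from 2.26 to 0.90 for S100a13. In that fit S100a13 passed between the PI3K inhibitor and vehicle (1.25, 0.0344), beside 33.8% of tested genes and 63.6% of those of like length. Between the combination and the PI3K inhibitor 3 S100 genes passed, beside 19.3% and 55%. Without BTK inhibitor replicate 4, S100a8 went from 0.62 to 0.16. With only the groups compared in the fit, S100a1 (0.97, 0.0259) and S100a13 (1.24, 0.0129) passed between the PI3K inhibitor and vehicle, beside 32.9% of tested genes and 68% of those of like length. All 8 S100 genes passed between the combination and the PI3K inhibitor in such a fit, beside 32.6% and 73.2%. In these alternative fits 373 to 406 genes of like length were tested.

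The 3 comparisons with vehicle share its specimens and are given side by side. The 8 S100 genes had a median log2 difference of 0.91 with the BTK inhibitor, 0.79 under the PI3K inhibitor and -0.45 under the combination. All 8 values were positive for each single inhibitor and all 8 negative for the combination. Over all tested genes the medians were -0.02, -0.01 and 0.00. Genes of like length had medians of 1.21, 1.27 and 0.12, with 376, 382 and 251 of 392 positive. The S100 genes thus had lower medians than the short genes around them in all 3 comparisons. S100a11 stood lowest against them, at 0.07 with the BTK inhibitor, 0.09 under the PI3K inhibitor and -0.64 under the combination, where 6.38%, 3.57% and 5.61% of genes of like length had lower values. S100a13 stood highest with the BTK inhibitor (2.26, above 89.5% of them).

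**Figure D2:**
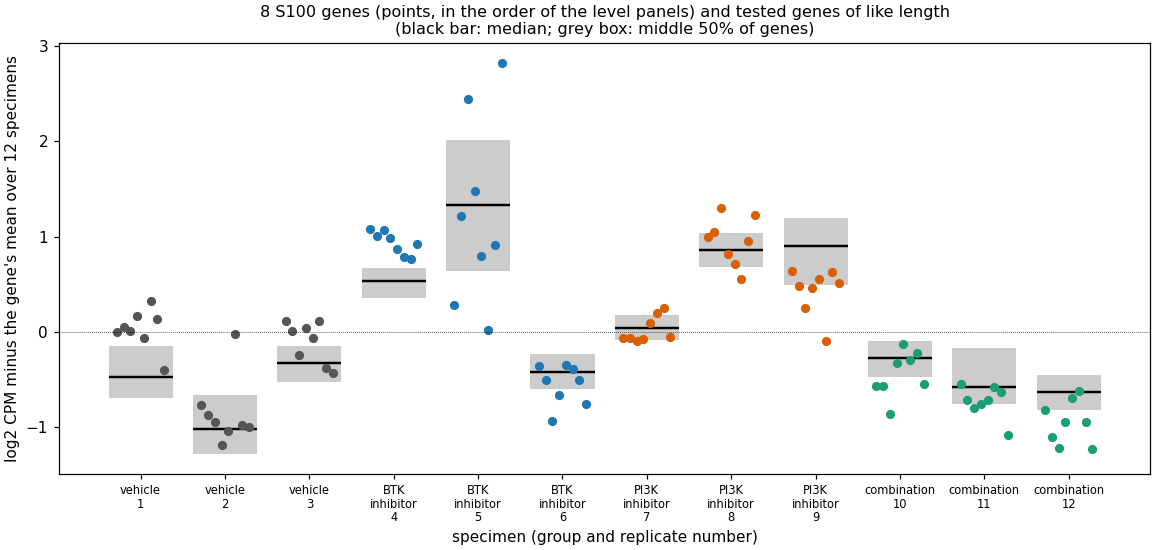
Log2 CPM minus each gene's mean over the 12 specimens (vertical axis) for the 8 S100 genes (points, in the gene order of the level panels) and for 392 tested genes of like length (black bar, median; grey box, middle 50%) in each specimen. The medians of like-length genes range from -1.02 in vehicle replicate 2 to 1.33 in BTK inhibitor replicate 5, the specimens in which the median S100 gene is also lowest and highest, while S100a11 is at -0.02 and 0.02 there.

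By specimen, only the combination lay below vehicle without overlap when set against genes of like length. The median of the S100 genes, each centred on its own mean, was 0.03, -0.96 and -0.03 log2 units in vehicle and 0.96, 1.06 and -0.50 with the BTK inhibitor. It was -0.06, 0.98 and 0.50 under the PI3K inhibitor and -0.44, -0.71 and -0.95 under the combination. The median of genes of like length was -0.47, -1.02 and -0.32 in vehicle, 0.53, 1.33 and -0.42 with the BTK inhibitor, 0.04, 0.86 and 0.90 under the PI3K inhibitor and -0.28, -0.58 and -0.63 under the combination. Both medians were highest in BTK inhibitor replicate 5 and lowest in vehicle replicate 2. Their difference, S100 genes minus genes of like length, was 0.50, 0.06 and 0.30 in vehicle and -0.16, -0.13 and -0.32 in the combination, which did not overlap. It was 0.42, -0.27 and -0.08 with the BTK inhibitor and -0.09, 0.11 and -0.40 with the PI3K inhibitor, both overlapping vehicle. Of the 8 S100 genes, 8, 6 and 6 lay above the like-length median in the vehicle specimens and 2, 1 and 1 in the combination specimens.

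The interaction of the inhibitors asks whether the combination differs from what the separate effects of the inhibitors add up to on the log2 scale (combination minus BTK inhibitor minus PI3K inhibitor plus vehicle). It was negative for all 8 S100 genes, and 7 of 8 passed the same adjusted edgeR test. In this test 27.6% of all genes passed, 15.6% with a negative value. Of the 392 genes of like length 68.6% passed, all of them negative. The median was -2.11 for the S100 genes and -2.28 for genes of like length, against 0.05 over all tested genes.

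Among the calprotectin genes the interaction was -1.84 ± 0.62 for S100a8 (SE, edgeR adjusted p = 0.0415) and -2.29 ± 0.68 for S100a9 (0.0282). For the partners of the cytoskeleton and the annexins it was -2.16 ± 0.68 for S100a4 (0.0338), -3.33 ± 0.89 for S100a6 (0.0217), -1.82 ± 0.52 for S100a10 (0.0246) and -0.81 ± 0.44 for S100a11 (0.179). The last gene did not pass in this test, while limma voom called it (log2 -1.19, voom adjusted p = 0.00743). S100a1 had -2.06 ± 0.54 (0.0210) and S100a13 had -3.84 ± 0.92 (0.0202), the largest size of the 8. The calls depended on single specimens. In edgeR's quasi-likelihood test 0 S100 genes passed without vehicle replicate 2, PI3K inhibitor replicate 8, PI3K inhibitor replicate 9, combination replicate 11 or combination replicate 12. The loss was not limited to S100 genes. Without combination replicate 11, 0 genes of the whole table passed, and the interaction calls of the partner genes given below were lost in each of these fits. Without BTK inhibitor replicate 4, 3 S100 genes passed (S100a1, S100a6 and S100a13), beside 16.7% of tested genes and 56.3% of those of like length. Between 6 and 7 passed without any one of the other 6 specimens, beside 17.4% to 44% of tested genes and 58.7% to 77.8% of those of like length. Without BTK inhibitor replicate 5 the interaction was -2.29 for S100a6 and -2.47 for S100a13, and both still passed.

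**Figure D3:**
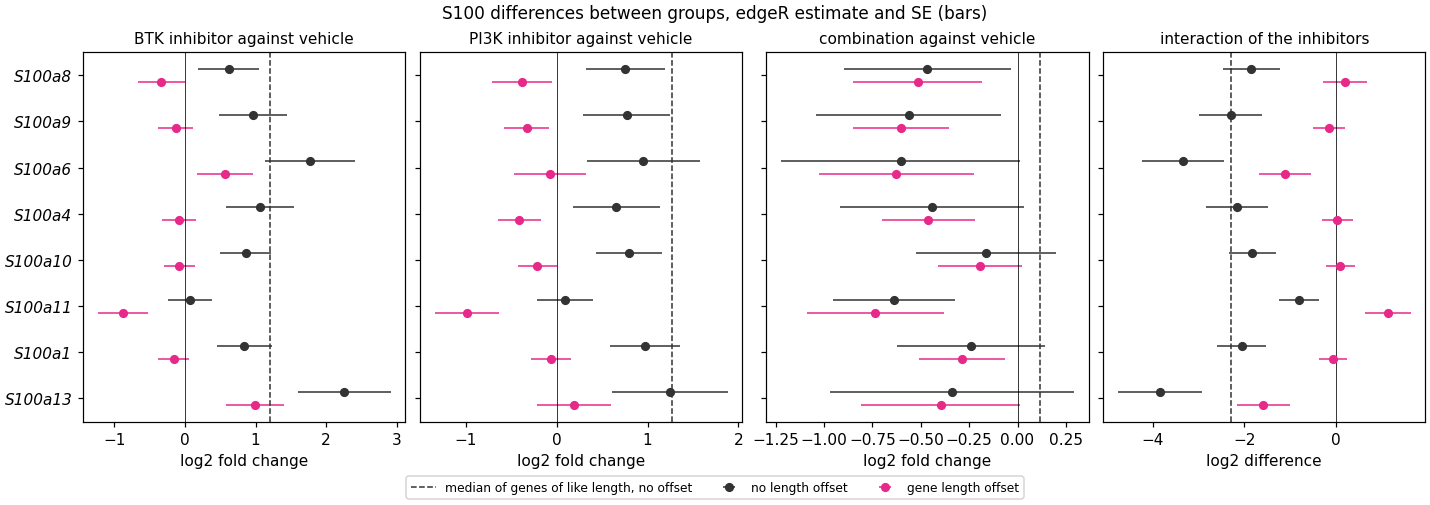
Log2 differences of the 8 S100 genes (edgeR estimate, bars are SE) in the 3 comparisons with vehicle and in the interaction, without (grey) and with (pink) a gene length offset; the dashed line is the median of genes of like length without the offset. With the offset the values for the single inhibitors and the interaction move toward 0 or past it, while those of the combination against vehicle stay between -0.74 and -0.19.

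A gene length offset, which removes from each library its own smooth trend of expression on transcript length, was fitted as an alternative. With it 0 S100 genes passed in any comparison of edgeR's quasi-likelihood test. The numbers with an unadjusted p below 0.05 were 2 with the BTK inhibitor against vehicle, 1 with the PI3K inhibitor, 1 with the combination and 2 in the interaction. Over all tested genes, 0 passed between any 2 groups and 1 in the interaction. The offset was not run with DESeq2 or voom. The median of the S100 genes became -0.11 with the BTK inhibitor against vehicle, -0.27 with the PI3K inhibitor and -0.02 in the interaction. It stayed at -0.49 with the combination against vehicle (-0.45 without the offset), with all 8 values negative in both fits. The largest of these was S100a11 at -0.74 (adjusted p = 0.749 with the offset), followed by S100a6 at -0.63 (0.844) and S100a9 at -0.60 (0.668). Over 34 alternatives the adjusted p of S100a11 in this comparison ranged from 0.0183 to 1, and voom gave the single call.

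For the 11 specimens other than BTK inhibitor replicate 5, leaving 1 out together with the offset was a choice made after the data had been seen. Without BTK inhibitor replicate 6, S100a6 (log2 -1.51, edgeR adjusted p = 0.0285) and S100a13 (-1.98, 0.0108) passed in the interaction, beside 23.1% of tested genes and 18.5% of those of like length. Both passed between the combination and the BTK inhibitor (-1.57 and -1.77), beside 14% and 12.6%. S100a13 also passed between the BTK inhibitor and vehicle there (1.37, 0.0234), beside 15.3% and 12.3%. In these 3 comparisons no S100 gene passed with any other single specimen left out. In the test of any difference among the 4 groups, 2 S100 genes passed in the offset fit without BTK inhibitor replicate 6. Beside them 10.6% of tested genes and 7.39% of those of like length passed. In the offset fit that left out BTK inhibitor replicate 5, S100a11 passed between the PI3K inhibitor and vehicle (-0.97, 0.0166), beside 18.9% of tested genes and 10.9% of those of like length. In that fit S100a6 was at 0.02 and S100a13 at 0.20 with the BTK inhibitor against vehicle, and neither passed in the interaction (-0.57 and -0.79).

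**Figure D4:**
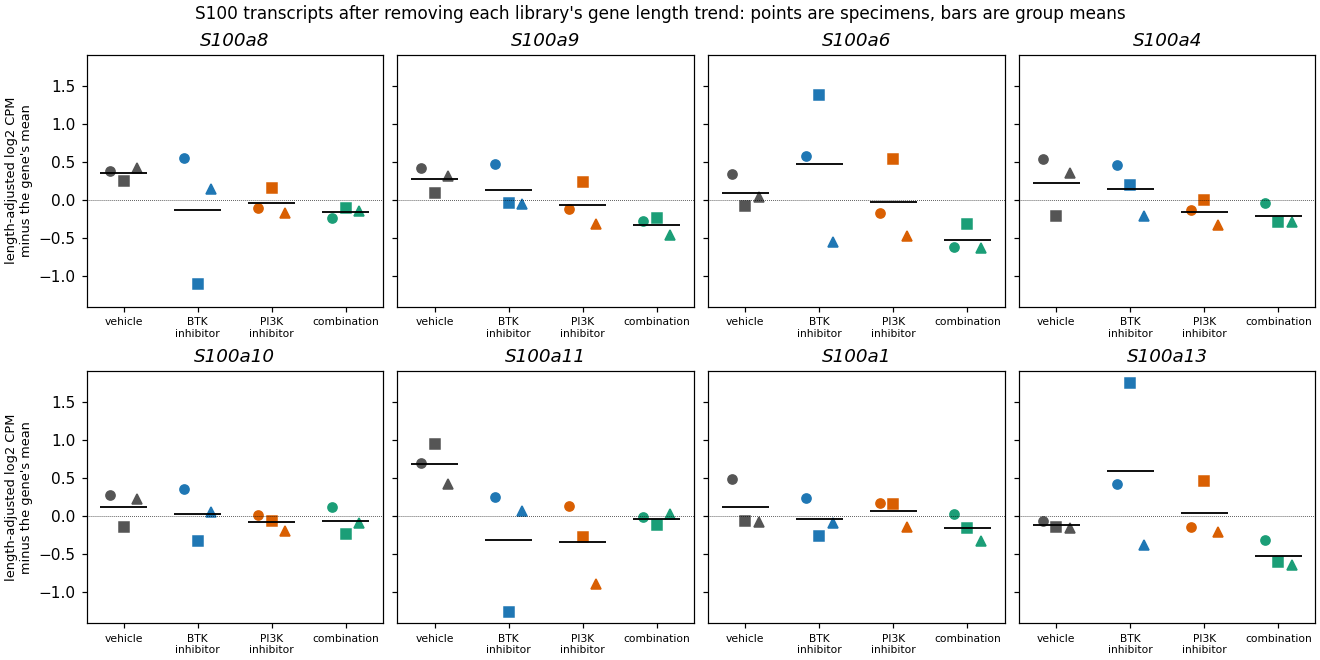
Log2 CPM of the 8 S100 genes after removal of each library's gene length trend, minus the gene's mean over the 12 specimens, by treatment group; points are specimens and bars are means of 3. The 3 vehicle points of S100a11 lie above all 9 treated points, and BTK inhibitor replicate 5 is at 1.38 for S100a6 and 1.76 for S100a13 but at -1.11 for S100a8.

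After the length trend was removed from each specimen's values, S100a11 was the S100 gene whose vehicle specimens stood apart from all treated ones. It was at 0.70, 0.95 and 0.42 log2 units from its mean in vehicle and at 0.25, -1.26 and 0.07 under the BTK inhibitor. Under the PI3K inhibitor it was at 0.13, -0.27 and -0.89, and in the combination specimens at -0.01, -0.11 and 0.03. S100a11 was thus lower without overlap in each treated group, beside 8.58% of tested genes lower in this way with the BTK inhibitor and 19.4% with the PI3K inhibitor, where S100a8 was lower too. S100a8 was at 0.38, 0.24 and 0.42 in vehicle and at -0.24, -0.11 and -0.15 with the combination. S100a9 was at 0.42, 0.09 and 0.31 in vehicle and at -0.29, -0.24 and -0.46 with the combination. Between the combination and vehicle 5 of 8 S100 genes were lower without overlap on this scale (S100a6, S100a8, S100a9, S100a11 and S100a13), beside 11.9% of all tested genes. S100a9 was also lower than with the BTK inhibitor alone (7.61% of tested genes were) and S100a13 than with the PI3K inhibitor alone (14.9%). None of these genes passed the test given above. For S100a6 and S100a13 the mean of the BTK inhibitor group on this scale, 0.47 ± 0.97 and 0.60 ± 1.08 (SD, n = 3), rested on replicate 5 (1.38 and 1.76), with replicate 6 at -0.55 and -0.38.

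Likeness between genes was measured as the mean absolute difference of log2 CPM, each gene centred on its mean, over the 12 specimens and among 7088 genes whose log2 CPM averaged 4 or more, leaving out predicted genes named Gm or Rik. The closest pairs of S100 genes were S100a4 and S100a9 (0.135), S100a1 and S100a10 (0.154) and S100a8 and S100a9 (0.174). The farthest were S100a11 and S100a13 (0.706). Neighbours on the chromosome did not always vary alike over the specimens: S100a1 and S100a13, 104 bases apart, differed by 0.390. In BTK inhibitor replicate 5 they were at 0.91 and 2.83 log2 units from their own means. Outside the family S100a9 was nearest to Cyba (0.0774), a subunit of the phagocyte NADPH oxidase, then to Tmsb4x and Prdx5. S100a8 was nearest to Tmsb4x (0.144), which encodes an actin-binding thymosin, then Sft2d1 and Tspo. S100a4 was nearest to Cyba (0.124), Selk and Ptpn18. S100a6 was nearest to Tnnt1 (0.112), to Camp, a granule peptide gene of developing neutrophils, and to Lamtor4. S100a10 was nearest to Ostc (0.0818), Fam174a and Itgb1bp1. S100a11 was nearest to Capg (0.0650), which encodes an actin-capping protein, then to Hp and Clec4a2. S100a1 was nearest to Bloc1s1 (0.0887), Txndc17 and Dbi, and S100a13 to Shfm1 (0.0510), Ndufb7 and Sec61b. These likenesses hold the length trend too, since all values come from the same 12 libraries.

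Of 22 receptors and partners of S100 proteins, 21 were tested. With the BTK inhibitor against vehicle 0 passed in edgeR's quasi-likelihood test (5 with an unadjusted p below 0.05, beside 3153 of 12742 tested genes). Cd33 (-1.005) and Bsg (0.96) had the smallest p. DESeq2 called 2 there and voom 6, beside 8.52% and 23.2% of all tested genes. With the PI3K inhibitor against vehicle 1 rose and 4 fell, in a comparison where 10.7% of all tested genes passed. Bsg, which encodes the S100A9 receptor basigin, rose from 262 ± 37.7 to 643 ± 179 CPM (SD, n = 3). Cd33, a sialic acid-binding receptor that binds S100A9, fell from 212 ± 23.8 to 71.1 ± 14.6 CPM, and Tlr4, a receptor of calprotectin, from 39.9 ± 7.78 to 16.4 ± 4.86. Myh9, the myosin heavy chain bound by S100A4, fell from 1643 ± 675 to 428 ± 164 CPM, and Ahnak, which binds S100A10 with annexin A2, from 164 ± 46.8 to 51.6 ± 9.13. The transcripts of Ahnak (18792 bases) and Myh9 (7435 bases) are long, and with the length offset the log2 values of the 5 genes were 0.90 for Bsg, -1.60 for Cd33, -1.03 for Tlr4, -1.15 for Myh9 and -0.54 for Ahnak, with no gene of the table passing. With presence of Y-linked transcripts as a covariate (in 2, 1, 1 and 1 of 3 specimens of the vehicle, BTK inhibitor, PI3K inhibitor and combination groups) no gene passed either. Without the offset, all 5 calls were lost without any 1 vehicle specimen, PI3K inhibitor replicate 8 or 9, or any 1 combination specimen, and that of Myh9 also without BTK inhibitor replicate 4. With the combination against vehicle 0 of 21 passed (2 with an unadjusted p below 0.05, beside 626 of 12742 tested genes). Cd36 (1.25) and Cd14 (-1.08) had the smallest p there, and 16 of 21 values were negative. DESeq2 called 0 there and voom 6, beside 9.66% of all tested genes for voom. The calprotectin receptor gene Ager was low in all groups, with means of 3.39 to 4.50 CPM. In the interaction 4 partners passed with a positive value (Tlr4, Cd33, Ahnak and Myh9) and 2 with a negative one (Bsg and Sugt1), beside 12% of all tested genes that passed with a positive value and 15.6% with a negative one, and 0 of the 6 passed with the length offset. All 6 of these calls were lost without vehicle replicate 2, PI3K inhibitor replicate 8, PI3K inhibitor replicate 9, combination replicate 11 or combination replicate 12, and that of Tlr4 also without vehicle replicate 1 or 3. The list median was 0.10.

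Of 9 myeloid transcription factors that act on S100a8 and S100a9, 0 passed against vehicle in any of the 3 treated groups in edgeR's quasi-likelihood test. With an unadjusted p below 0.05 there were 1, 3 and 0 for the BTK inhibitor, the PI3K inhibitor and the combination. Beside them were 3153, 4543 and 626 of 12742 tested genes. DESeq2 called 0, 2 and 0, and its total for the PI3K inhibitor is given above. Voom called 1, 3 and 3, beside 23.2%, 37.4% and 9.66% of all tested genes. With the combination all 9 values were negative, with a median of -0.48, beside -0.47 and -0.56 for S100a8 and S100a9. Spi1, which encodes PU.1, and Stat3 had the smallest p there. Spi1 was at 399.6 ± 45.2 CPM in vehicle and 264 ± 22.2 with the combination (log2 -0.60). The smallest p for the BTK inhibitor were those of Hif1a (-1.06) and Cebpe (0.60), and for the PI3K inhibitor those of Hif1a (-1.55) and Stat3 (-0.96). In the interaction Hif1a (2.12) and Cebpe (-1.47) passed, 2 of 9 beside 27.6% of all tested genes, and with the length offset neither did (1.46 and -0.19). Both calls were lost without vehicle replicate 2 or 3, BTK inhibitor replicate 4, PI3K inhibitor replicate 8 or 9, replicate 11 or replicate 12 of the combination, and that of Hif1a also without vehicle replicate 1 or combination replicate 10.

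Marker genes of marrow cell types were read beside the S100 genes. No marker of neutrophils, their precursors or monocytes in the table was at 0 counts. Summed over 8 genes, markers of immature neutrophils were at 45633 to 51538 CPM in vehicle, 39631 to 95987 with the BTK inhibitor, 42769 to 73128 with the PI3K inhibitor and 28225 to 37354 with the combination. Those of mature neutrophils (10 genes) were at 10261 to 11204, 7177 to 14060.1, 7807 to 12673 and 7062 to 7922 CPM in the same order. Combination specimens thus lay below vehicle for both sums, which are not adjusted for length. The monocyte sum was lower too, at 1936 to 2293 CPM against 2587 to 3033 in vehicle. That of granulocyte-monocyte precursors overlapped vehicle, at 4249 to 5839 against 5152 to 8578 CPM. On this CPM scale S100a8 and S100a9 in the combination overlapped vehicle, and they lay below it only after length adjustment. Single markers did not all follow the sums. Against vehicle, both single inhibitors had negative log2 values for 6 of 8 immature and 7 of 10 mature neutrophil markers, the rest positive. Monocyte values were negative for 7 and 8 of 9 with the BTK and the PI3K inhibitor. Those of granulocyte-monocyte precursors were positive for 5 and 6 of 7. Against vehicle the log2 values of the combination were negative for 10 of 10 mature neutrophil, 8 of 8 immature neutrophil, 7 of 7 granulocyte-monocyte precursor and 9 of 9 monocyte markers, with 0 passing in edgeR's quasi-likelihood test. Unadjusted p lay below 0.05 for 1, 1, 0 and 0 of them, beside 626 of 12742 tested genes. DESeq2 called 0 in all 4 lists and voom 0, 3, 0 and 2, beside 9.66% of all tested genes for voom. The log2 values were also negative for 7 of 7 eosinophil, basophil and mast cell markers and positive for 7 of 7 B lineage markers. Those of macrophages, T and NK cells, megakaryocytes and stroma were of mixed sign. They were positive for 8 of 8 erythroid markers, whose sum was 500.2 to 2044 CPM in vehicle and 2501 to 2793 with the combination. Of the erythroid markers 0 passed in edgeR's test, 6 had an unadjusted p below 0.05, DESeq2 called 0 and voom 7, beside the same 9.66%. With the PI3K inhibitor 3 erythroid markers and 1 megakaryocyte marker rose, while 2 mature neutrophil and 4 monocyte markers fell (10.7% of all tested genes passed). No gene of the table passed in that comparison without any 1 vehicle specimen, PI3K inhibitor replicate 8 or 9, or any 1 combination specimen, so these marker calls were lost too. With the length offset 0 markers of these lists passed in that comparison. The part of cell makeup in the S100 values was not tested.

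The other S100 genes of the table were near the limit of detection. S100a3 had 2 to 21 counts per specimen and S100a2, named after its values were seen, 0 to 25. S100a7a had 0 to 13 counts, S100a16 1 to 14, S100b 0 to 5, and S100a5 and S100a14 0 to 2. S100g and S100z had 0 counts in all specimens. Of these 9 genes only S100a2 and S100a3 had enough counts to be tested.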

How the data were processed

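Libraries from bone marrow mononuclear cells were made with the SMART-Seq and Nextera XT kits, per the labels' protocols. This preparation does not mark strand. STAR, featureCounts and the mm10 build are named in the submitters' processing notes. Settings, versions and the counting of reads with several matches: not given in the sources used here. Whole-number counts per gene were deposited by the authors for 12 specimens, with gene length in bases beside them. The 2 samples listed for each specimen share 1 column. No per-sample column was left unused (0). Total counts ranged from 8993950 to 22154833. No 2 specimens of a group agreed within sampling noise.

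The tools were R 4.3.3, edgeR 4.0.16 (filterByExpr by group with a smallest count of 10 and a total of 15, TMM scaling, glmQLFit and glmQLFTest, robust), limma 3.58.1 and DESeq2 1.42.0. A group-means model over all 12 specimens gave 8 comparisons, adjusted by Benjamini-Hochberg over all 12742 tested genes with a threshold of 0.05. CPM used TMM-scaled totals of tested genes and log2 CPM a prior count of 2. SEs come from the F statistic. The length offset is a natural spline of log2 length with 5 degrees of freedom per library. Alternatives were other scaling factors, tools and filters (CPM of at least 5 in at least 3 specimens), only the groups compared, Y-linked presence as a covariate, Rn45s left out, the offset with and without BTK inhibitor replicate 5, and each specimen left out. The offset with each of the other 11 specimens left out was added after the data were seen. The tests were tried on simulated data.

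The 8 S100 genes are always named. Beside each, the 3 most alike genes are given, and of each list up to 4 passing genes or else the 2 with the smallest p. These genes, lists and rules were chosen with earlier results of these data known. Exact permutation tests of 3 against 3 specimens cannot go below 0.1 and were not run.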

Additional observations from a re-analysis of the deposited data

Results flagged for a closer look

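In 7 S100 genes the effect of 1 inhibitor differed with the presence of the other in edgeR's quasi-likelihood test of the interaction, which 27.6% of all tested genes and 68.6% of those of like length passed. The median was -2.11 for the S100 genes and -2.28 for genes of like length. The log2 values were -2.06 for S100a1, -2.16 for S100a4, -3.33 for S100a6, -1.84 for S100a8, -2.29 for S100a9, -1.82 for S100a10 and -3.84 for S100a13. With the length offset these became -0.06, 0.03, -1.11, 0.20, -0.14, 0.10 and -1.58, and none passed. Without the offset 0 S100 genes passed in each of the fits that left out vehicle replicate 2, replicates 8 or 9 of the PI3K inhibitor group, or replicates 11 or 12 of the combination. Without combination replicate 11, 0 genes of the whole table passed. No group has more than 3 specimens, so none was searched for a specimen far from the rest.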

How the results depend on the processing

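The analysis held 8 comparisons. No paired analysis was possible because the groups compared share no replicate numbers. With DESeq2, the number of S100 genes passing was 2 for the BTK inhibitor against vehicle, 4 for the combination against the BTK inhibitor, 3 for the combination against the PI3K inhibitor and 7 for any difference among the 4 groups. With limma voom, the number of S100 genes passing was 3 for the BTK inhibitor against vehicle, 2 for the PI3K inhibitor against vehicle, 2 for the combination against vehicle, 8 for the combination against the BTK inhibitor, 8 for the combination against the PI3K inhibitor and 8 for any difference among the 4 groups. With the offset and BTK inhibitor replicate 5 left out, the number of S100 genes passing was 1 for the PI3K inhibitor against vehicle and 0 for the interaction. With only the groups compared in the fit, the number of S100 genes passing was 2 for the PI3K inhibitor against vehicle and 8 for the combination against the PI3K inhibitor. With the length offset, the number of S100 genes passing was 0 for the interaction. With DESeq2, the number of genes of the whole table passing was 1085 for the BTK inhibitor against vehicle, 3221 for the PI3K inhibitor against vehicle, 22 for the combination against vehicle, 577 for the combination against the BTK inhibitor, 1226 for the combination against the PI3K inhibitor and 3140 for any difference among the 4 groups. With limma voom, the number of genes of the whole table passing was 2950 for the BTK inhibitor against vehicle, 4761 for the PI3K inhibitor against vehicle, 1231 for the combination against vehicle, 4973 for the combination against the BTK inhibitor, 5331 for the combination against the PI3K inhibitor, 6729 for the interaction and 6695 for any difference among the 4 groups. With no filter, the number of genes of the whole table passing was 1 for the BTK inhibitor against vehicle, 1 for the combination against vehicle, 1 for the combination against the BTK inhibitor and 1 for any difference among the 4 groups. With the offset and BTK inhibitor replicate 5 left out, the number of genes of the whole table passing was 1 for the BTK inhibitor against vehicle, 2441 for the PI3K inhibitor against vehicle, 1 for the combination against the BTK inhibitor, 418 for the interaction and 2 for any difference among the 4 groups. With the length offset, the number of genes of the whole table passing was 0 for the PI3K inhibitor against vehicle and 1 for the interaction. With the Y-linked covariate, the number of genes of the whole table passing was 0 for the PI3K inhibitor against vehicle. With only the groups compared in the fit, the number of genes of the whole table passing was 4057 for the PI3K inhibitor against vehicle and 4004 for the combination against the PI3K inhibitor.

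For the BTK inhibitor against vehicle, the length offset reversed the sign of S100a1 (-0.16), S100a4 (-0.083), S100a8 (-0.34), S100a9 (-0.13), S100a10 (-0.081) and S100a11 (-0.88). For the BTK inhibitor against vehicle, the offset and BTK inhibitor replicate 5 left out reversed the sign of S100a1 (-0.048), S100a4 (-0.089), S100a9 (-0.036) and S100a11 (-0.53). For the PI3K inhibitor against vehicle, the length offset reversed the sign of S100a1 (-0.065), S100a4 (-0.41), S100a6 (-0.077), S100a8 (-0.38), S100a9 (-0.33), S100a10 (-0.21) and S100a11 (-0.99). For the PI3K inhibitor against vehicle, the offset and BTK inhibitor replicate 5 left out reversed the sign of S100a1 (-0.051), S100a4 (-0.40), S100a6 (-0.063), S100a8 (-0.37), S100a9 (-0.32), S100a10 (-0.20) and S100a11 (-0.97). For the interaction, the length offset reversed the sign of S100a4 (0.033), S100a8 (0.20), S100a10 (0.099) and S100a11 (1.13). For the interaction, the offset and BTK inhibitor replicate 5 left out reversed the sign of S100a4 (0.032) and S100a11 (0.78). For the combination against the PI3K inhibitor, the length offset reversed the sign of S100a10 (0.018) and S100a11 (0.25). For the combination against the PI3K inhibitor, the offset and BTK inhibitor replicate 5 left out reversed the sign of S100a10 (0.016) and S100a11 (0.25). For the combination against the BTK inhibitor, the length offset reversed the sign of S100a11 (0.14). The cause of these changes was not tested.

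Each of the 12 specimens was left out in turn, and 11 of them also together with the length offset, a choice made after the data were seen. Over these 23 fits the number of S100 genes passing ranged from 0 to 6 for the BTK inhibitor against vehicle, 0 to 2 for the PI3K inhibitor against vehicle, 0 to 8 for the combination against the BTK inhibitor, 0 to 6 for the combination against the PI3K inhibitor, 0 to 7 for the interaction and 0 to 7 for any difference among the 4 groups. The number of genes passing ranged from 0 to 3809 for the BTK inhibitor against vehicle, 0 to 4375 for the PI3K inhibitor against vehicle, 0 to 3 for the combination against vehicle, 0 to 3470 for the combination against the BTK inhibitor, 0 to 2499 for the combination against the PI3K inhibitor, 0 to 1 for the PI3K inhibitor against the BTK inhibitor, 0 to 5692 for the interaction and 0 to 4115 for any difference among the 4 groups. In the comparison of the BTK inhibitor against vehicle, log2 values ranged from -0.30 to 1.17 for S100a1, -0.25 to 1.46 for S100a4, -0.69 to 0.90 for S100a8, -0.31 to 1.32 for S100a9, -0.25 to 1.15 for S100a10 and -1.14 to 0.30 for S100a11. In the comparison of the PI3K inhibitor against vehicle, log2 values ranged from -0.16 to 1.28 for S100a1, -0.59 to 0.89 for S100a4, -0.42 to 1.21 for S100a6, -0.48 to 1.00 for S100a8, -0.49 to 1.00 for S100a9, -0.32 to 0.96 for S100a10, -1.23 to 0.23 for S100a11 and -0.049 to 1.501 for S100a13. In the comparison of the combination against vehicle, log2 values ranged from -0.48 to 0.069 for S100a1. In the comparison of the combination against the BTK inhibitor, log2 values ranged from -1.41 to 0.0068 for S100a1, -1.37 to 0.16 for S100a8, -1.32 to 0.053 for S100a10 and -0.94 to 0.40 for S100a11. In the interaction, log2 values ranged from -2.39 to 0.063 for S100a1, -2.56 to 0.18 for S100a4, -2.13 to 0.53 for S100a8, -2.66 to 0.019 for S100a9, -2.12 to 0.26 for S100a10 and -1.03 to 1.38 for S100a11. In the comparison of the combination against the PI3K inhibitor, log2 values ranged from -1.29 to 0.022 for S100a4, -1.19 to 0.095 for S100a10 and -0.88 to 0.51 for S100a11.

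With the Y-linked covariate 0 genes passed with the PI3K inhibitor against vehicle, and the S100 interaction count stayed at 7. It did so too with RLE or upper-quartile scaling, with DESeq2, with no filter or a stricter one, and without Rn45s. In these fits 17.5% to 35.7% of tested genes and 39.6% to 87.9% of those of like length passed in the interaction. Limma voom called all 8 S100 genes there, beside 52.8% of tested genes and 81.6% of those of like length. With 3 specimens a group, an effect of a single library could not be told apart from a group difference. Low counts limited S100a2 and S100a3. Levels by deposited totals with no scaling factor moved beyond 1 SD in 4 of 32 values. Precision follows from depth for counting error only.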
